A study of Mus musculus with 64 samples.

Results

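S100a8, S100a9 and 8 other genes of neutrophil granules and neutrophil defence were followed through 4 progenitor populations of the fetal mouse liver, in fetuses that lacked Smarcd2 and in their heterozygous and wild-type counterparts. The 10 genes are S100a8, S100a9, Camp, Ngp, Ltf, Lcn2, Cybb, Hp, Fcnb and Ltb4r1, found in the deposited count tables by their Ensembl identifiers. They are 10 of the 38924 genes listed in at least 1 table. All 10 were listed in the tables of LSK cells and granulocyte-monocyte progenitors (GMP), 8 in that of common myeloid progenitors (CMP), which lists neither Camp nor Lcn2, and 9 in that of megakaryocyte-erythroid progenitors (MEP), which does not list Lcn2. A gene that a table does not list was not analysed there. The smallest total of a listed gene was 0 reads in the LSK table, 7 in CMP, 1 in GMP and 11 in MEP.

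Smarcd2 encodes a subunit of the BAF (SWI/SNF) chromatin remodelling complex. The groups are Smarcd2 -/- (KO), Smarcd2 +/- (HET) and wild-type (WT) C57BL/6 fetuses, labelled 13/14 days post coitum, with 1 CMP HET library labelled 14.5. LSK cells, the lineage-negative Sca-1+ c-Kit+ fraction which includes stem cells and multipotent progenitors, gave 9 KO, 9 HET and 5 WT libraries. CMP gave 4 KO, 7 HET and 3 WT libraries, GMP gave 3 KO, 7 HET and 3 WT, and MEP gave 4 KO, 7 HET and 3 WT. The lineage cocktail held antibodies to B220, CD3, Gr-1 and Ter-119, so cells with the granulocyte antigen Gr-1 were sorted out. For CMP, GMP and MEP the gate is labelled with CD177, a neutrophil antigen, although CD117 (c-Kit) and not CD177 was stained for, so the gate used is uncertain. CMP, GMP and MEP libraries are called here by their genotype and the last number of their title, and LSK libraries by their title, in which HT marks HET. Nothing in the labels ties each library to its own fetus, and the p-values measure a spread between libraries that may be partly technical.

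Neutrophils fill their granules in waves: azurophil granules with myeloperoxidase and serine proteases form first, secondary granules with lactoferrin, cathelicidin and lipocalin 2 form later, and a further wave gives gelatinase granules. S100A8 and S100A9 form calprotectin, a calcium-binding and metal-chelating heterodimer that fills the cytosol of mature neutrophils and is also found in monocytes. In people, loss of SMARCD2 or of the transcription factor C/EBP-epsilon causes a neutrophil disorder in which secondary granules fail to form.

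Each of the 10 genes is protein coding, and reads were counted over its exons. On GRCm38, S100a8 lies at chr3:90668978-90670035 (plus strand) and S100a9, 22.597 kb further along, at chr3:90692632-90695721 (minus strand). Camp (chr9:109847379-109849617, minus), Ngp (chr9:110419747-110423012, plus) and Ltf (chr9:111019271-111042767, plus) share a stretch of chromosome 9. Lcn2 lies at chr2:32384633-32388252 (minus) and Fcnb at chr2:28076378-28084885 (minus). Cybb is at chrX:9435252-9487771 (minus), Hp at chr8:109575128-109579172 (minus) and Ltb4r1 at chr14:55765962-55768494 (plus). No exon of these genes overlaps an exon of another annotated gene.

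The 250 bases before the RefSeq start site are shown for S100a8, S100a9 and Camp, the genes that were lower in KO GMP, and for Fcnb and Ltb4r1, which followed S100a8 across populations to different degrees. Capitals mark matches to the C/EBP-type motif TTNNGNAA on either strand, and the sequences are from RefSeq (GRCm38.p6). Those of S100a8 and Ltb4r1 are from the plus strand (chr3:90668821-90669070 and chr14:55765712-55765961) and the others from the minus strand (S100a9 chr3:90695722-90695971, Camp chr9:109849457-109849706, Fcnb chr2:28084879-28085128).
S100a8: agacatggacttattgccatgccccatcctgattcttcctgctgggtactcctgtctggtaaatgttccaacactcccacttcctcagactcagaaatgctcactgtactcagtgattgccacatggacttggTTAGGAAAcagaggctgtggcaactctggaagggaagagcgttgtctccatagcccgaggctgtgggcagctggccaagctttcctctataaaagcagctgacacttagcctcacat
S100a9: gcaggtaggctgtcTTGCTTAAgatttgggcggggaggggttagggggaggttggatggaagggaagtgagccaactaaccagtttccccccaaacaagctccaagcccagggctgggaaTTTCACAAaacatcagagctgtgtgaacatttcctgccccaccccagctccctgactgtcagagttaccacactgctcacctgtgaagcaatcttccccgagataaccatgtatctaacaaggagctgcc
Camp: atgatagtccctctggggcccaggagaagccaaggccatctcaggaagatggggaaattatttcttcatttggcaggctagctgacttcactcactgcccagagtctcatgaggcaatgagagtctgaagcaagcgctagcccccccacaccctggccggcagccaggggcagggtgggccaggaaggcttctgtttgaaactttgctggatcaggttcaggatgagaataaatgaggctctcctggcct
Fcnb: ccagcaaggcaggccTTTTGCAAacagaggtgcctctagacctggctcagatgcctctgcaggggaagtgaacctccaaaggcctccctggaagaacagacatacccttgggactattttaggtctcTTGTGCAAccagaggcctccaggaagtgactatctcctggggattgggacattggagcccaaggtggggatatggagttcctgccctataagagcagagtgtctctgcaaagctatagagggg
Ltb4r1: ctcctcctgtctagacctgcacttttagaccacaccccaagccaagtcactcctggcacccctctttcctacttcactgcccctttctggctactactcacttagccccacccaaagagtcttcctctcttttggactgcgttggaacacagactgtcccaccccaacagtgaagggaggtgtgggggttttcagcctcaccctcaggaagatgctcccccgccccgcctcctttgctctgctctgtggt

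The S100a8 window holds 1 match (TTAGGAAA, 117 to 110 bases before the start), the S100a9 window holds TTGCTTAA and TTTCACAA, and the Fcnb window holds TTTTGCAA and TTGTGCAA. The windows of Camp and Ltb4r1 hold no match. Of the 9 members with an entry, all but Hp, 6 (66.7%) hold the motif, against 36.8% of 32817 promoter windows of the same length. The PU.1-type motif GAGGAA, also searched on both strands, was in 4 of the 9 (44.4%), against 23.3% of all windows. No match of one motif overlaps a match of the other in these windows, and a match is a description of the letters only.

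S100a8, S100a9 and Camp fell in KO GMP, where 10 of 10 members were tested. S100a8, Cybb and Hp fell in KO CMP, where 6 members were tested. A gene was called at an adjusted p under 0.05 in edgeR's quasi-likelihood test, with Benjamini-Hochberg adjustment over all genes kept in that population. In GMP, 3 members were lower and 0 higher against WT and the same counts held against HET, where 0.163% of all genes tested were lower and 0.0409% higher against WT, and 0.188% lower and 0.0735% higher against HET. In CMP, 3 of 6 members were lower and 0 higher against WT (0.823% and 1.02% of all genes tested), and 2 lower and 0 higher against HET (0.806% and 1.38%). In MEP 4 members were tested and none was called against WT or HET (0.00856% and 0.0171% of all genes in either direction). Unadjusted p was under 0.05 for 4 of them against WT and 3 against HET, and DESeq2 called 1, S100a8, in each comparison. Here and below, the share of all genes with an unadjusted p under 0.05 was not computed, so such counts have no background. All shares of genes called are edgeR's. In LSK, 4 members were tested. Against WT 1 was higher and 0 lower (9.53% and 9.28% of all genes), and against HET 1 was higher and 1 lower (5.93% and 5.17%). The comparisons with WT and with HET share the KO libraries, so they are not independent of each other.

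Between HET and WT, edgeR called no member in any of the 4 populations. Of all genes tested, 0.00721% were called between HET and WT in LSK and 0% in CMP, GMP and MEP. Unadjusted p was under 0.05 for 2 members in CMP and 0 in the other 3 populations. DESeq2 also called none, while limma called 5 of 10 in GMP (Camp, Ngp, Ltf, Lcn2 and Fcnb, all lower in HET) and none elsewhere. The share of all genes called by limma is not given here, so its count cannot be set against the 0% of edgeR. Of the WT GMP reads of Ngp and Ltf, 84.9% and 83.8% were in WT 5. Median log2 fold changes of members tested, HET against WT, were -0.83 in GMP, -0.58 in CMP, -0.90 in MEP and 0.21 in LSK. Over all genes tested they were 0.0828, 0.00643, 0.0418 and 0.0163. In GMP all 10 members were negative, but Hp and Ltb4r1 were near 0 (-0.0667 and -0.0665) and Ltf turned positive without WT 5. The members are not independent of each other. For KO in GMP the median of the members was -3.96 against WT and -2.72 against HET, beside medians of 0.00421 and -0.0648 over all genes tested.

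S100a8 and S100a9, the subunits of calprotectin, had almost no reads in KO GMP. S100a8 had 0.198, 4.95 and 0.752 CPM (read counts scaled to library size) in KO 6, 13 and 15, from 1, 14 and 4 reads. In the 7 HET libraries it ranged from 23.4 to 525 CPM with a median of 370, and in WT 2, 5 and 12 it was at 1071, 484 and 494 CPM. The groups did not overlap: every KO library lay below every HET and WT library, and the lowest HET library, HET 8, held 8 reads of S100a8 and stood apart from the other GMP libraries (median correlation across genes 0.392). S100a8 averaged 1.97 ± 2.60 CPM in KO, 343 ± 168 in HET and 683 ± 336 in WT (SD; n = 3, 7 and 3). The log2 fold change was -8.54 against WT (SE 1.27; edgeR adjusted p 0.00787) and -7.55 against HET (SE 1.19; edgeR adjusted p 0.00859).

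S100a9 followed the same pattern at a lower level. It was at 0.395, 1.77 and 0 CPM in KO 6, 13 and 15, between 8.77 and 121 CPM in HET libraries (median 53.1), and at 206, 75.3 and 63.4 CPM in WT 2, 5 and 12. Again no KO library reached the lowest HET or WT library. Its log2 fold change was -7.49 against WT (SE 1.06; edgeR adjusted p 0.00711) and -6.60 against HET (SE 1.00; edgeR adjusted p 0.00824). Among libraries with at least 50 reads of each gene, the level of S100a8 per kilobase of exon was 3.25 to 5.81 times that of S100a9 in 6 HET GMP libraries (median 4.67) and 3.91 to 5.86 times in the 3 WT GMP libraries (median 4.83). The ranges of HET and WT overlapped, and no KO library held enough reads for this ratio.

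Both calls rest on 3 KO libraries. Without KO 6, edgeR's adjusted p of S100a8 was 0.0594 against WT and 0.0570 against HET, and without KO 15 it was 0.0631 and 0.104. For S100a9 it was 0.0594 and 0.0701 without KO 6, and 0.0569 against HET without KO 15. The log2 fold change of S100a8 against WT was -7.95 without KO 6 and -8.13 without KO 15. Titles of CMP, GMP and MEP libraries carry M32, M33 or M34, called series here, and KO 6 is the only KO GMP library of M32. There S100a8 was at 0.198 CPM in KO 6, against a mean of 432 in 4 HET and 777 in 2 WT libraries, and S100a9 at 0.395 CPM in KO 6, against 81.0 in HET and 141 in WT. KO 13 and 15 form series M34, which holds no HET or WT library, so with the series as a block the adjusted p of S100a8 was 0.0833 against WT and 0.0741 against HET, and that of S100a9 0.0834 and 0.0879 (edgeR). In these bulk libraries, fewer cells of a type and less RNA per cell cannot be told apart.

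**Figure D1:**
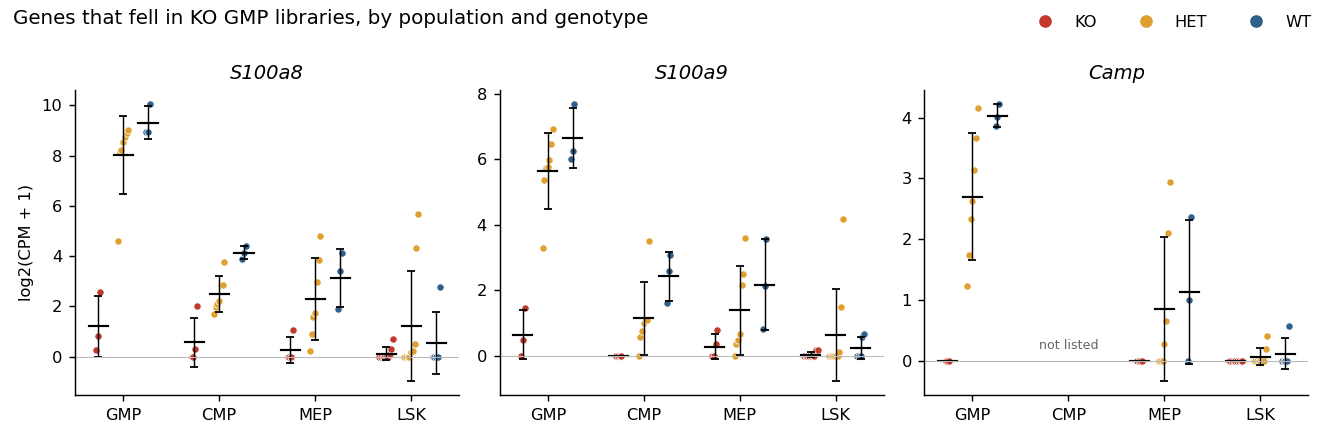
S100a8, S100a9 and Camp in each library, as log2(CPM + 1), in GMP, CMP, MEP and LSK, with KO, HET and WT from left to right in each population. Points are libraries and bars are the mean ± SD; in GMP the KO libraries of S100a8 sit between 0.198 and 4.95 CPM, below every HET library and every WT library.

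In CMP, where both genes were far lower than in GMP, S100a8 also fell in KO. It was at 0, 0.223, 3.01 and 0 CPM in KO 6, 11, 13 and 15, between 2.25 and 12.7 CPM in HET libraries (median 3.62), and at 16.3, 13.8 and 20.27 CPM in WT 2, 5 and 12. All KO libraries lay below all WT libraries, whereas KO 13, with 8 reads, lay above the lowest HET libraries. HET lay between the other genotypes, with its highest library, HET 3, below the lowest WT library. On the log2 scale the fold change was -4.71 against WT (SE 0.77; edgeR adjusted p 0.00195) and -3.13 against HET (SE 0.74; edgeR adjusted p 0.0333). The call against WT held without any 1 library, and the call against HET was lost without any of HET 3, 9 or 10 or KO 6, 11 or 15 (edgeR adjusted p 0.0528 to 0.150) and with the series as a block (0.102). Within M32, S100a8 was at 0 CPM in KO 6, against a mean of 5.63 in HET and 15.04 in WT, and within M33 at 0.223 CPM in KO 11, against a mean of 4.89 in HET and 20.27 in WT.

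S100a9 had 0 reads in all 4 KO CMP libraries. It was between 0 and 10.4 CPM in HET libraries (median 0.990), and at 5.05, 7.43 and 2.06 CPM in WT 2, 5 and 12. With 3 counts over the KO group as the floor, its pooled level was at least 26.7-fold lower in KO than in WT. Against HET the bound was 11.5-fold, but HET 3 held 45 of the 60 HET reads, so this bound rests mainly on 1 library. It did not pass the test (edgeR adjusted p 0.0656 against WT and 0.130 against HET), although DESeq2 and limma called it against WT (adjusted p 0.00438 and 0.0410). KO and WT did not overlap, while 1 HET library also had no read.

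MEP held few reads of either gene. S100a8 was at 0, 0, 0 and 1.06 CPM in KO 6, 11, 13 and 15, between 0.162 and 27.0 CPM in HET (median 2.38), and at 2.69, 16.6 and 9.73 CPM in WT 2, 5 and 12. All KO libraries lay below WT, and 1 of the 4 lay within the HET range. From pooled reads, the level in WT was 49.3 times that in KO (95% counting interval 16.3 to 244) and that in HET 27.6 times (9.25 to 136); edgeR's adjusted p was 0.338 against WT and 0.324 against HET. These counting intervals and the floors, here and below, take pooled reads as independent and leave out the spread between libraries. Reads here are not independent molecules, so the intervals are too narrow and are no measure of the difference between genotypes. S100a9 had 3 reads in KO MEP, 53 in HET and 41 in WT and was not called (edgeR adjusted p 0.542 against WT and 0.621 against HET).

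LSK cells held reads of S100a8 and S100a9 mainly in a pair of HET libraries. HT20.5 had 1242 reads of S100a8 (50.9 CPM) and 414 of S100a9, and HT24.2 had 138 reads of S100a8 (19.12 CPM) and 13 of S100a9. The WT libraries were all at 0 for S100a8 except WT24.10, at 24 reads (5.75 CPM), and no KO library had more than 3 reads. HT20.5, the deepest LSK library, was also the highest for Fcnb (181 reads, 7.42 CPM). For Camp it held 8 reads (0.328 CPM), below WT24.10, which held 2 reads (0.479 CPM). The genes were too low to be tested by edgeR in LSK, and exact permutation tests over libraries (two-sided) gave p 0.357 for S100a8 in KO against WT and 0.234 against HET.

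Camp, which encodes the cathelicidin antimicrobial peptide of secondary granules, had 0 reads in all 3 KO GMP libraries. It was between 1.33 and 16.9 CPM in the HET libraries (median 5.20), and at 17.8, 13.5 and 15.03 CPM in WT 2, 5 and 12. KO did not overlap either genotype, while HET 7 lay within the WT range and the other HET libraries below it. With the floor of 3 counts over the group, Camp was at least 65.1-fold lower in KO than in WT and at least 27.9-fold lower than in HET (edgeR adjusted p 0.0200 and 0.0343). The fitted log2 fold change is no bound where a group has no reads. The call against WT was lost without KO 6 or 15 or any 1 WT library (edgeR adjusted p 0.0682 to 0.0972), and that against HET without HET 1 or 10 or KO 6 or 15 (0.0658 to 0.148). RLE scaling in place of TMM also ended the call against HET (adjusted p 0.0512), limma called neither (0.343 and 0.221), and with the series as a block both were lost (edgeR adjusted p 0.184 and 0.204). The absence of reads is the same in each of these fits.

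Camp was also at 0 in all 4 KO MEP libraries, where it averaged 1.53 ± 2.55 CPM in HET (n = 7) and 1.72 ± 2.16 CPM in WT (n = 3), and where 3 HET libraries and 1 WT library had no read. The exact permutation p (two-sided) was 0.143 against WT and 0.215 against HET. Against WT the ties at 0 allow no smaller p with these values, so that test could not pass. In LSK it had 0 reads in KO, 9 in HET and 2 in WT.

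Lcn2, which encodes the siderophore-binding protein lipocalin 2, was low in all GMP libraries. It was at 0, 0.707 and 0.188 CPM in KO 6, 13 and 15, between 0.672 and 8.10 CPM in HET (median 2.13), and at 4.04, 5.15 and 4.32 CPM in WT 2, 5 and 12. All KO libraries lay below WT, and KO 13 lay just above the lowest HET library, HET 9. With 3 reads in KO, the pooled level in WT was 20.1 times that in KO (95% counting interval 6.54 to 101) and that in HET 13.7 times (4.48 to 67.9). It was not called (edgeR adjusted p 0.499 against WT and 0.297 against HET). In LSK, Lcn2 had reads in 1 HET library only.

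Ngp, neutrophilic granule protein, and Ltf, which encodes the iron-binding lactoferrin, each rested on few libraries. Of the 106 reads of Ngp in WT GMP, 84.9% were in WT 5, and of the 111 of Ltf, 83.8%. WT 5 thus held 22.1 CPM of Ngp and 22.82 CPM of Ltf, while the other WT libraries held 1.79 to 3.23 CPM of Ngp and 0 to 2.68 CPM of Ltf. In KO GMP the reads of both lay almost all in KO 15, with 6 of Ngp (1.13 CPM) and 25 of Ltf (4.70 CPM). HET 8, the library that stood apart, was the highest HET library for both, at 17.5 CPM of Ngp and 20.46 CPM of Ltf, from 6 and 7 reads. Its TMM scaling factor was 0.304, against 0.846 to 1.28 in the other GMP libraries, which makes its CPM larger for the same reads. Neither gene was called in GMP, with edgeR adjusted p of 0.797 (Ngp) and 0.836 (Ltf) against WT, and 0.621 and 0.975 against HET. Without WT 5 the log2 fold change of Ltf in KO against WT was 0.19 in place of -2.34, so its direction there rests on 1 library.

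The pattern was alike in CMP, where Ngp and Ltf had 0 reads in all KO libraries. WT 5 held 25 of the 26 WT reads of Ngp and 23 of the 25 of Ltf, and HET 8 held 10 of the 13 HET reads of Ltf. The exact permutation p (two-sided) was 0.143 for both genes against WT, and 0.348 (Ngp) and 0.576 (Ltf) against HET. Against WT the ties at 0 allow no smaller p with these values, so those tests could not pass. In MEP, HET 1 held 31 of the 45 HET reads of Ngp and 31 of the 55 of Ltf, while Ltf had no reads in WT.

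In LSK cells Ltf behaved differently from the other secondary granule genes: it was detected in every library and was lower in KO than in HET. It ranged from 0.563 to 3.66 CPM in KO (median 2.58) and from 2.66 to 11.001 CPM in HET (median 4.29), and was at 4.76, 5.05, 4.02, 2.696 and 3.83 CPM in the 5 WT libraries. KO and HET overlapped, with 5 of 9 KO libraries below every HET library. This gave a log2 fold change of -1.05 against HET (SE 0.27; edgeR adjusted p 0.0117), a call that held without any 1 library. Against WT it was -0.69 (SE 0.33; edgeR adjusted p 0.141). Ngp, by contrast, had 0 reads in KO LSK, 4 in HET and 7 in WT.

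Fcnb, which encodes ficolin B, a pattern-recognition lectin stored in neutrophil granules, was also lower in KO GMP without passing the test. It was at 0, 22.63 and 7.89 CPM in KO 6, 13 and 15, between 14.6 and 155 CPM in HET (median 108), and at 67.8, 201 and 205 CPM in WT 2, 5 and 12. All KO libraries lay below WT, and KO 13 alone lay above the lowest HET library, HET 8. The log2 fold change was -3.98 against WT (SE 1.07; edgeR adjusted p 0.272) and -3.32 against HET (SE 0.98; edgeR adjusted p 0.217). DESeq2 called Fcnb against both (adjusted p 0.00977 and 0.00755), as did limma (0.0349 and 0.0410). In CMP, 3 of 4 KO libraries had no read and KO 13 had 8 (3.01 CPM), beside 1.39 to 4.89 CPM in HET and 1.81, 3.03 and 7.90 CPM in WT 2, 5 and 12. It was not called with KO 13 (edgeR adjusted p 0.247 against WT and 0.294 against HET) and was without it (0.0161 and 0.0261). MEP held 1 read of Fcnb in KO, 23 in HET and 19 in WT, and it was not called there (edgeR adjusted p 0.683 against HET and 0.617 against WT).

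Hp encodes haptoglobin, a haemoglobin-binding protein of neutrophil granules that the liver also makes. It fell in KO CMP. Hp was at 21.8, 17.4, 23.0 and 22.1 CPM in KO 6, 11, 13 and 15, between 8.98 and 58.8 CPM in HET (median 47.9), and at 51.6, 61.6 and 63.2 CPM in WT 2, 5 and 12. KO lay below all of WT and below all of HET except HET 8. Its log2 fold change was -1.48 against WT (SE 0.30; edgeR adjusted p 0.0104) and -1.17 against HET (SE 0.26; edgeR adjusted p 0.0206). The first was lost without WT 5 (adjusted p 0.0526) or WT 12 (0.0553), and the second without HET 10 (0.0504) or KO 11, 13 or 15 (0.0654 to 0.0898). With the series as a block both were lost (0.0832 and 0.186).

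Hepatocyte genes, all 14 of 14 listed in CMP, were lower in all KO than in all WT libraries and varied widely in HET. Their summed level was 40.0 to 150 CPM in KO CMP, 33.6 to 1941 in HET and 340 to 869 in WT. Alb, which encodes albumin, was at 7.27 to 32.8 CPM in KO CMP, 5.20 to 661 in HET and 94.5 to 264 in WT. HET 7, with the lowest sum and the lowest Alb, had the highest Hp of the HET libraries, and the 6 HET libraries other than HET 8 stayed between 43.8 and 58.8 CPM of Hp. The part of hepatocyte genes in the result for Hp was not tested. In GMP Hp was at 91.3, 145 and 138 CPM in KO 6, 13 and 15, between 32.2 and 266 CPM in HET (median 227), and at 203, 232 and 183 CPM in WT 2, 5 and 12. KO lay below WT there and within the HET range, which HET 8 alone widened below 177 CPM. It was not called in GMP (log2 fold change -0.72, edgeR adjusted p 0.831 against WT; -0.65 and 0.565 against HET). MEP held little Hp, 0.407 ± 0.512 CPM in KO, 2.41 ± 1.87 in HET and 1.90 ± 1.37 in WT (SD; n = 4, 7 and 3), with a two-sided exact permutation p of 0.143 against WT and 0.0576 against HET. In LSK it averaged 0.570 CPM in KO, 1.19 in HET and 1.12 in WT and was not called (edgeR adjusted p 0.489 and 0.293).

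Cybb, the membrane-bound catalytic subunit of the phagocyte NADPH oxidase, is made by monocytes and macrophages as well as neutrophils. In CMP it was at 40.3, 42.6, 51.6 and 67.8 CPM in KO 6, 11, 13 and 15, between 47.2 and 89.1 CPM in HET (median 77.9), and at 106, 113 and 132 CPM in WT 2, 5 and 12. The highest KO library, KO 15, lay well under the lowest WT library, and HET lay between the other genotypes apart from HET 8, the CMP library least like the others (median correlation across genes 0.767). On the log2 scale the fold change was -1.20 against WT (SE 0.19; edgeR adjusted p 0.00172), which held without any 1 library, and -0.59 against HET (SE 0.17; edgeR adjusted p 0.0818). Without HET 8, the comparison with HET was called (adjusted p 0.00790). Within M32, Cybb was at 40.3 CPM in KO 6, against a mean of 79.4 in HET and 109 in WT, and within M33 at 42.6 CPM in KO 11, against 69.5 in HET and 132 in WT.

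In GMP Cybb varied most among the KO libraries, at 1.78, 8.49 and 50.9 CPM in KO 6, 13 and 15. HET ranged from 14.6 to 81.8 CPM (median 59.3) and WT 2, 5 and 12 were at 84.0, 106 and 82.3 CPM. KO 15 lay inside the HET range and all KO libraries lay below WT. The log2 fold change of -2.14 (SE 0.84) against WT did not pass (edgeR adjusted p 0.678), nor did that of -1.38 against HET (0.448), while limma called both (adjusted p 0.0440 and 0.0408). LSK cells gave the other direction, with 34.01 to 121 CPM in KO (median 50.8), 17.7 to 55.3 CPM in HET (median 33.4) and 15.1, 25.4, 23.1, 36.2 and 62.8 CPM in the 5 WT libraries. The groups overlapped, and the log2 fold changes of 1.02 against WT and 0.85 against HET just missed the threshold (edgeR adjusted p 0.0566 and 0.0642). LSK titles carry series numbers that genotypes share. Within each of the 4 series that hold WT, every KO library lay above every WT library, and within 4 of the 5 that hold HET, above every HET library. With the series as a block Cybb was called against both (log2 fold change 1.07, edgeR adjusted p 0.00633 against WT; 0.67 and 0.0340 against HET). DESeq2 and limma also called it against WT (adjusted p 0.0250 and 0.0108). In the same libraries 12 macrophage genes summed to 112 to 1962 CPM in KO, 180 to 1928 in HET and 211 to 1321 in WT. Their part in the result for Cybb was not tested. In MEP Cybb was low, at 2.89 ± 1.22 CPM in KO, 4.01 ± 2.02 in HET and 7.74 ± 6.40 in WT (SD; n = 4, 7 and 3), and not called (edgeR adjusted p 0.685 and 0.898).

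Ltb4r1 encodes BLT1, the high-affinity leukotriene B4 receptor through which neutrophils follow this lipid attractant. It is the 1 member called higher in KO in any population. In LSK it ranged from 1.80 to 9.80 CPM in KO (median 6.00) and from 1.86 to 4.55 CPM in HET (median 3.32), and was at 1.98, 3.66, 3.42, 2.55 and 2.64 CPM in WT. The groups overlapped at their lower ends, and KO averaged 5.74 ± 2.47 CPM (SD, n = 9), against 3.21 ± 0.922 in HET (n = 9) and 2.85 ± 0.682 in WT (n = 5). This gave a log2 fold change of 1.00 against WT (SE 0.31; edgeR adjusted p 0.0229) and 0.81 against HET (SE 0.24; edgeR adjusted p 0.0273). The first call was lost without WT19.2 (adjusted p 0.0648) or WT22.8 (0.0643), and the second without HT22.6 or KO19.5, KO21.2 or KO22.5 (0.0505 to 0.0674). limma called neither (adjusted p 0.0699 and 0.0975).

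CMP showed a difference of the same sign that did not pass. Ltb4r1 was at 8.18, 8.93, 11.3 and 12.1 CPM in KO 6, 11, 13 and 15, between 3.37 and 7.72 CPM in HET (median 6.46), and at 4.53, 5.78 and 6.18 CPM in WT 2, 5 and 12. Every KO library lay above every HET and WT library. The log2 fold change was 0.90 against WT (SE 0.27; edgeR adjusted p 0.113) and 0.66 against HET (SE 0.22; edgeR adjusted p 0.144). DESeq2 and limma called the comparison with WT (adjusted p 0.0308 and 0.0206). In GMP, at a much higher level, it was at 63.8, 69.0 and 29.9 CPM in KO 6, 13 and 15, between 11.7 and 98.7 CPM in HET (median 70.2), and at 68.6, 75.8 and 67.4 CPM in WT 2, 5 and 12. KO 13 lay within the WT range, KO 6 just below it and KO 15 further below (log2 fold change -0.38, edgeR adjusted p 0.888 against WT; -0.32 and 0.749 against HET). In MEP it was at 0.367, 0.814, 0.281 and 4.61 CPM in KO 6, 11, 13 and 15, between 0.325 and 1.19 CPM in HET (median 0.611) and between 0.377 and 0.767 CPM in WT. KO 15, the MEP library least like the others (median correlation across genes 0.811), alone lay above both other genotypes, and the two-sided exact permutation p was 0.829 against WT and 0.327 against HET.

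**Figure D2:**
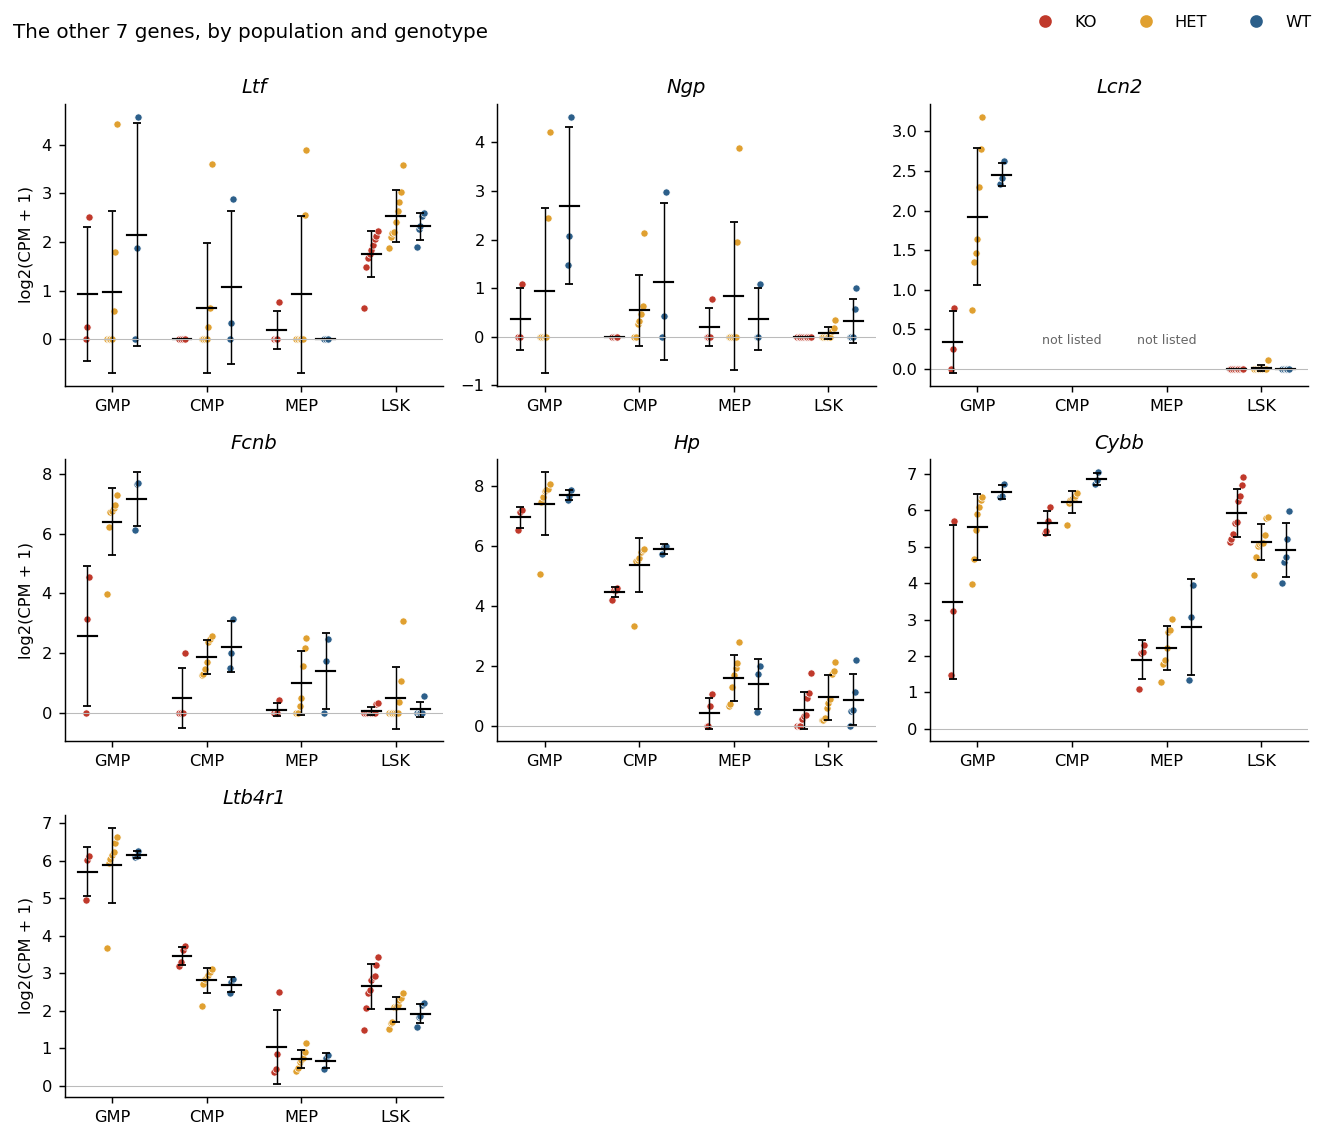
Ltf, Ngp, Lcn2, Fcnb, Hp, Cybb and Ltb4r1 in each library, as log2(CPM + 1), in GMP, CMP, MEP and LSK, with KO, HET and WT from left to right in each population. Points are libraries and bars are the mean ± SD; Ngp and Ltf show single high libraries, and Ltb4r1 in CMP shows KO (8.18 to 12.1 CPM) above HET and WT.

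**Figure D3:**
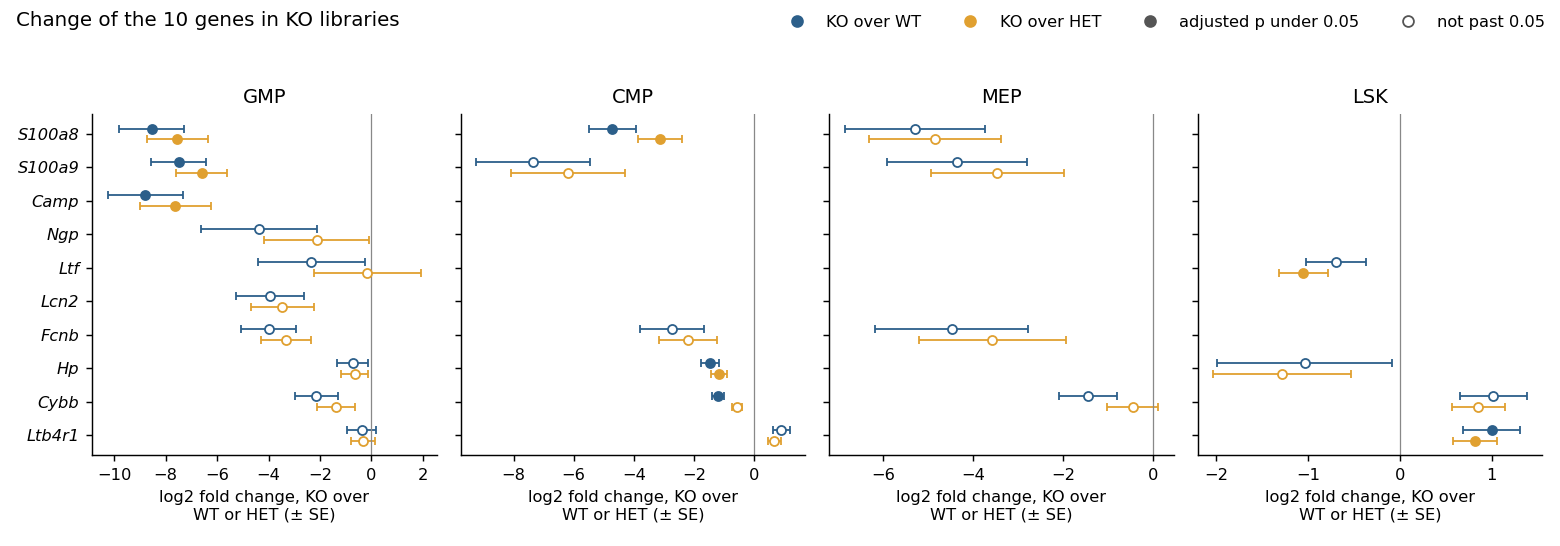
Log2 fold change of each tested member in KO against WT (blue) and against HET (orange), with its SE, in 4 panels for the populations. Filled points have an edgeR adjusted p under 0.05; in GMP these are S100a8 (-8.54 against WT), S100a9 and Camp, and in LSK Ltb4r1 lies above 0.

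The members differ in where they are made. On the scale of CPM per kilobase of exon, WT GMP held most of S100a8 (984 ± 484), then S100a9 (220 ± 151), Hp (128 ± 15.4), Fcnb (118 ± 58.3) and Ltb4r1 (50.7 ± 3.26; SD, n = 3). Camp (20.36 ± 2.85), Cybb (15.6 ± 2.25), Ngp (7.39 ± 9.27), Ltf (2.46 ± 3.62) and Lcn2 (1.72 ± 0.221) followed. S100a9, Hp and Fcnb lay within their spread of each other, as did Camp and Cybb, and Ngp, Ltf and Lcn2. In KO GMP the order on the same scale began with Hp (77.8 ± 18.2), Ltb4r1 (38.9 ± 15.2) and Fcnb (7.60 ± 8.58), and S100a8 (2.83 ± 3.75) came after Cybb (3.51 ± 4.59), with Camp last at 0. In WT CMP, Hp (36.6 ± 3.94 CPM per kilobase), S100a8 (24.18 ± 4.73) and Cybb (20.1 ± 2.30) led, with S100a8 and Cybb within their spread of each other. Cybb (5.60 ± 3.19) led in WT LSK (n = 5), where its spread overlapped those of Ltb4r1 (2.05 ± 0.490) and S100a8 (1.66 ± 3.71). In WT MEP S100a8 (13.9 ± 10.005) and S100a9 (9.61 ± 10.1) were highest, within their spread of each other.

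A fit over CMP, GMP and MEP, on the 8 members and all other genes listed in the 3 tables, compared populations within each genotype. Against CMP, 4 members were higher in GMP in WT (S100a8, S100a9, Fcnb and Ltb4r1; 0.676% of all genes were higher), 5 in HET (Hp as well; 3.36%) and 3 in KO (Hp, Fcnb and Ltb4r1; 7.73%). On the scale of this fit, S100a8 averaged 779 ± 419 CPM in WT GMP (SD, n = 3) and 15.4 ± 3.07 in WT CMP (n = 3; log2 fold change 5.66, edgeR adjusted p 0.00373). In KO it averaged 2.17 ± 2.80 CPM in GMP (n = 3) and 0.743 ± 1.35 in CMP (n = 4), a log2 fold change of 1.67 that did not pass (edgeR adjusted p 0.345). Ltb4r1 was higher in GMP in both genotypes, by 3.99 on the log2 scale in WT (edgeR adjusted p 1.53e-05) and by 2.71 in KO, and Fcnb by 5.56 in WT (edgeR adjusted p 0.00397) and 4.33 in KO. Without CMP WT 2 or CMP WT 5 the WT count was 1.

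Against MEP, 6 members were higher in GMP in WT (all but Ngp and Ltf; 4.77% of all genes were higher), 6 in HET (11.8%) and 4 in KO (Cybb, Hp, Fcnb and Ltb4r1; 9.15%). Cybb, Hp and Ltb4r1 were higher in CMP than in MEP in each genotype, with 2.23% of all genes higher in WT, 6.38% in HET and 5.95% in KO. A call in one genotype and none in another does not show that they differ. The difference itself, the KO effect in GMP minus that in another population, was called for none of the 8 members by edgeR. Against WT the share of all genes called in either direction was 0.0169% for GMP minus CMP and 0.414% for GMP minus MEP, and against HET 0.845% and 1.78%. For S100a8 the KO effect against HET was lower in GMP than in CMP, by a difference of -4.63 on the log2 scale (SE 1.69; p 0.00919, edgeR adjusted p 0.195), and that against WT by a difference of -3.995 (SE 1.79; p 0.0313, edgeR adjusted p 0.777). Unadjusted p was under 0.05 for 1 member against WT and 1 against HET in GMP minus CMP, and for 0 and 2 in GMP minus MEP. DESeq2 called 1 of these differences, in GMP minus CMP against HET, and limma none.

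For other genes of the same pathways, 58 genes of 10 lists were tested in GMP. edgeR called none against WT or HET, where 0.204% and 0.261% of all genes were called in either direction. Unadjusted p was under 0.05 for 12 and 14 of the list genes, without a share of all genes to set them against. Of 7 azurophil granule genes, the neutrophil proteases Elane and Ctsg had the most negative log2 fold changes. Elane was at a mean of 170 CPM in KO GMP, against 2200.1 in HET and 2820.3 in WT (log2 fold change -4.06, SE 1.30, against WT; edgeR adjusted p 0.449). Ctsg, cathepsin G, was at 206 CPM in KO, against 1686 in HET and 2261 in WT (-3.45, SE 0.94; edgeR adjusted p 0.272), and the serine protease Prss57 at 37.9 CPM in KO, against 87.5 in HET and 112 in WT. The list's median log2 fold change was -0.63 against WT and -0.41 against HET.

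Of 15 other secondary and tertiary granule genes 10 were tested in GMP. Olfm4, olfactomedin 4, was at 16.1 CPM in KO, against 47.1 in HET and 77.3 in WT (log2 fold change -2.26 against WT, SE 0.53; edgeR adjusted p 0.152). Mcemp1 was at 8.64 CPM in KO, against 39.3 in HET and 56.0 in WT, whereas Lyz2, lysozyme of myeloid cells, was at 2078 CPM in KO, against 778 in HET and 729 in WT. The list's median was -0.05 against WT. Among 8 late neutrophil genes tested, Wfdc21 had no reads in KO, against 1.35 CPM in HET and 5.06 CPM in WT (edgeR adjusted p 0.150 against WT). The chemokine receptor Cxcr2 was at 1.84 CPM in KO, against 10.1 in HET and 11.4 in WT.

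The partners of the member proteins did not pass in GMP. All 7 partners of Cybb were tested, with a median log2 fold change of 0.18 against WT and 0.50 against HET. Cyba, which pairs with Cybb in the membrane, was at 451 CPM in KO, against 219 in HET and 206 in WT (edgeR adjusted p 0.829 against WT), and the cytosolic subunit Ncf1 at 60.3 CPM in KO, against 90.1 in HET and 108 in WT. In the leukotriene B4 list, Alox5ap, the 5-lipoxygenase activating protein, was at 892 CPM in KO, against 313 in HET and 306 in WT (edgeR adjusted p 0.800 against WT). Tlr4, a receptor for calprotectin, was at 2.76 CPM in KO, against 14.8 in HET and 18.9 in WT, and Lrp1, a lactoferrin receptor, at 3.84 CPM in KO, against 31.9 in HET and 13.2 in WT. Tfrc, the transferrin receptor, was at 22.15 CPM in KO, against 87.2 in HET and 84.0 in WT. None of these passed in edgeR.

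The 4 other S100 genes of chromosome 3 that were tested in GMP were not called. S100a10, 2885 kb from S100a8, was at 94.3 CPM in KO, against 30.2 in HET and 21.64 in WT (log2 fold change 2.11 against WT, SE 0.53; edgeR adjusted p 0.205). S100a13 was at 41.9 CPM in KO, against 19.09 in HET and 14.99 in WT, and S100a1 at 57.1 CPM in KO, against 33.9 in HET and 37.2 in WT. Their log2 fold changes against WT, 1.46 and 0.61, had the opposite sign to those of S100a8 and S100a9. That of S100a11, the fourth gene, had the same sign as those of S100a8 and S100a9 (-0.33, edgeR adjusted p 0.934). Among 8 myeloid transcription factors tested, Irf8 was at 15.4 CPM in KO, against 60.3 in HET and 77.2 in WT (-2.33, SE 0.53, edgeR adjusted p 0.143). Spi1, which encodes PU.1, was at 280 CPM in KO, against 132 in HET and 135 in WT, and Cebpa at 6.57 CPM in KO, against 22.1 in HET and 14.5 in WT.

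In CMP, 4 of 7 azurophil granule genes were lower against WT and 3 against HET, and none was higher. Of all genes tested, 0.823% were lower and 1.02% higher against WT, and 0.806% and 1.38% against HET. Ctsg was at 65.9 CPM in KO, against 366 in HET and 424 in WT (log2 fold change -2.68 against WT, edgeR adjusted p 7.31e-08; -2.47 against HET, adjusted p 7.77e-08). Elane was at 8.98 CPM in KO, against 60.1 in HET and 100.4 in WT (-3.49 and -2.80), and Prss57 at 1.21 CPM in KO, against 6.19 in HET and 7.28 in WT (-2.53 and -2.25). The fourth, called against WT only, was Ctsc, the protease that activates the others (-1.32). The list's median log2 fold change was -1.32 against WT and -0.64 against HET, beside medians of -0.00941 and -0.00819 over all genes tested.

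Elsewhere in the CMP lists only Itgam and Cd69 were called, both higher (1.02% of all genes against WT and 1.38% against HET). Itgam, the integrin subunit CD11b carried in secondary and gelatinase granules, was at 69.7 CPM in KO, against 28.1 in HET and 19.7 in WT (log2 fold change 1.84 against WT, edgeR adjusted p 3.86e-05; 1.29 against HET, adjusted p 8.08e-05). It was the 1 gene called among 5 tested of the other secondary and tertiary granule genes. The 8 of 12 macrophage genes listed in CMP summed to 317 to 482 CPM in KO, 159 to 367 in HET and 240.4 to 397 in WT. The KO range overlapped both others. Adgre1, 1 of these genes, was at 28.6 to 61.0 CPM in KO CMP, above all HET (15.2 to 23.7) and WT (16.8 to 27.5) libraries. The others are not given singly, and the part of macrophage genes in the result for Itgam was not tested. Cd69, a surface receptor listed as a binding partner of calprotectin in people, was at 246 CPM in KO, against 144 in HET and 139 in WT (0.82, edgeR adjusted p 0.0119 against WT; 0.77, adjusted p 0.00295 against HET). Of all 50 list genes tested in CMP, 17 had an unadjusted p under 0.05 against WT and 16 against HET. The share of all genes at that threshold was not computed, so these counts do not show an excess in the lists.

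**Figure D4:**
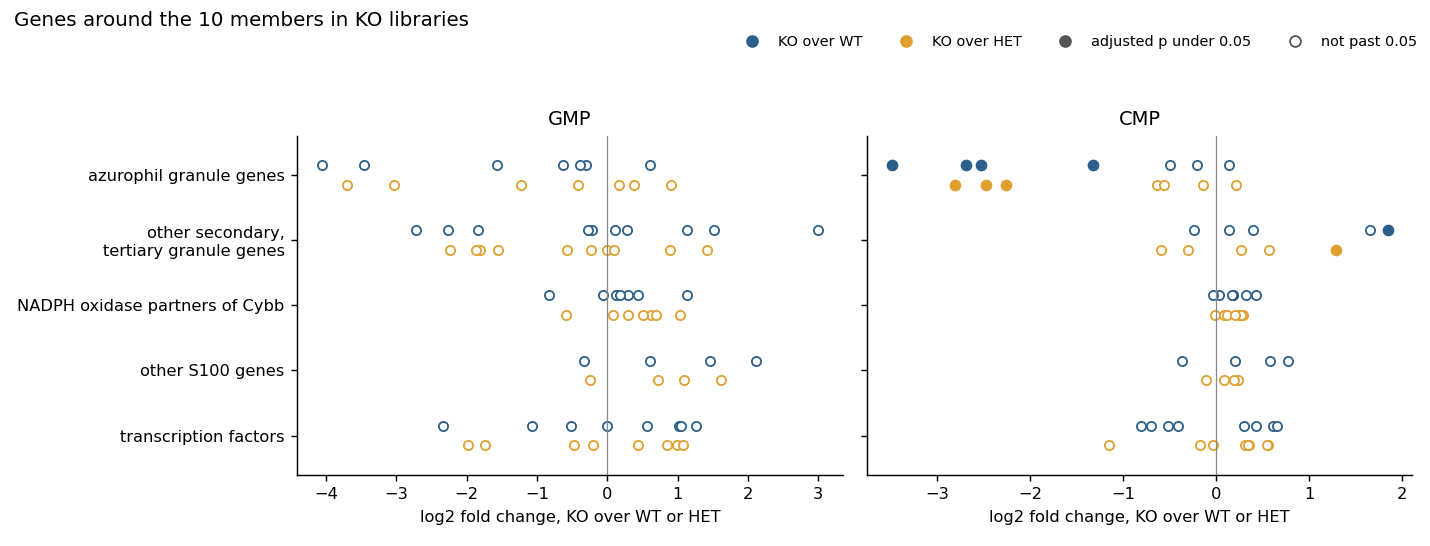
Log2 fold change in KO against WT and against HET of the genes tested in 5 lists (azurophil granule genes, other secondary and tertiary granule genes, NADPH oxidase partners, other S100 genes, transcription factors), in GMP and in CMP. Filled points have an edgeR adjusted p under 0.05; in CMP these are azurophil genes below 0 and Itgam above 0, and in GMP there are none.

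Across the 41 CMP, GMP and MEP libraries, the genes outside the 10 whose level was most like that of S100a8, by Pearson's r of log2(CPM + 1) among 11821 genes, were Ly6c2 (0.905), Prom1 (0.893), Agps (0.887), Dgat2 (0.870) and Gca (0.869). These are descriptions over libraries that share their populations and their depth. Ly6c2, a surface antigen of monocytes and their precursors, averaged 1.12 CPM in KO GMP, against 122 in HET GMP and 173 in WT GMP. Gca, grancalcin, a calcium-binding protein of neutrophil granules, averaged 3.15 CPM in KO GMP, against 48.3 in HET GMP and 51.7 in WT GMP. Of the members, S100a9 (0.977) and Fcnb (0.934) were most like S100a8, Ltb4r1 (0.685), Hp (0.672) and Cybb (0.525) less so, and Ngp (0.375) and Ltf (0.238) least.

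The libraries held 1006090 to 6300070 gene reads in GMP, 1577073 to 8092644 in CMP, 1488328 to 5646315 in MEP and 4327582 to 24069833 in LSK. The median level of Smarcd2 in GMP was 0.752 CPM in KO, 48.0 in HET and 88.1 in WT, and KO was lowest in each of the other populations too. Spike-in RNA took 2.52 to 3.06% of reads in KO GMP, 0.00912 to 0.394% in HET GMP and 0.149 to 0.233% in WT GMP, so all 3 KO libraries lay above the rest; its part in the GMP results was not tested. Of 6 mature neutrophil markers 5 were listed in GMP, and they summed to 0.198 to 12.7 CPM in KO, 5.71 to 46.8 in HET and 10.6 to 25.0 in WT. Ly6g, which defines mature neutrophils, was at 0 in KO GMP. In HET it was at 2.92 CPM in HET 8, the level of 1 read there, at 0.489 CPM in HET 1 and at 0 in the others, and in WT it reached 0.149 CPM. The 6 monocyte markers summed to 274 to 521 CPM in KO GMP, 213 to 886 in HET and 506 to 845 in WT. Mpo, a gene of granulocyte-monocyte progenitors, was at 11296 to 20539 CPM in KO GMP, 523 to 31588 in HET and 7462 to 25521 in WT, and Fcgr3, which the gate selects for, at 511 to 738 CPM in KO, 52.6 to 1139 in HET and 421 to 1265 in WT. The lowest HET values of both are those of HET 8.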

How the data were processed

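RNA of sorted fetal liver progenitors was amplified by Smart-seq2 and made into Nextera XT libraries, per the labels' protocols, a method that records neither strand nor molecule. The deposited values are the authors' whole-number read counts per Ensembl gene. The submitters' processing notes name featureCounts and the build mm10 (GRCm38); aligner and versions are not given in the sources used. Symbols and positions came from GENCODE M21.

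Each population was fitted separately with its 3 genotypes by edgeR 4.0.16 (quasi-likelihood, robust, TMM scaling after filterByExpr with a minimum count of 10 and a minimum total of 15) in R 4.3.3. CMP, GMP and MEP were also fitted jointly on 11829 genes. Every adjusted p is Benjamini-Hochberg over all genes of the fit, called under 0.05, and is edgeR's unless DESeq2 1.42.0 or limma 3.58.1 is named. The SE is the absolute log2 fold change over the square root of F and is approximate. CPM levels use TMM-scaled library sizes, separately per population. Members too low to be tested got two-sided exact permutation tests. The fits were also run on simulated counts that gave all genes the same spread and changed only genes with more reads. This is no check on members with few reads. Spike-ins were left out of library sizes. Named genes of each list are the 3 with the smallest unadjusted p in KO against HET, in CMP and in GMP, beside those called and S100a11. Members and lists were chosen with earlier results of these data known.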

Additional observations from a re-analysis of the deposited data

Results flagged for a closer look

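In 20 of the 56 groups of 4 to 10 libraries checked, the highest or lowest library lay farther from its neighbour, relative to the group's range, than Dixon's 95% critical value allows. Chance would mark about 1 in 20 such groups if the values were normally distributed, which low counts with many zeros are not. The number flagged therefore cannot be set against chance. The genes are also not independent, since single libraries recur.

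Each library is set against the others of its own group. Among HET LSK libraries, HT20.5 was highest for S100a8 (50.9 CPM, next 19.12), S100a9 (17.0 CPM, next 1.80), Fcnb (7.42 CPM, next 1.11) and Camp (0.328 CPM, next 0.137). Among WT LSK libraries WT24.10 was highest for S100a8 (5.75 CPM, all other WT libraries at 0) and among KO LSK libraries KO22.5 for Hp (2.40 CPM, next 1.13).

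In CMP, HET 3 was highest for S100a8 (12.7 CPM, next 6.28) and S100a9 (10.4 CPM, next 1.12). KO 13 was highest for S100a8 (3.01 CPM, next 0.223) and Fcnb (3.01 CPM, the other KO libraries at 0), from 8 reads each. HET 8 was highest for Ltf (11.2 CPM, next 0.557) and lowest for Cybb (47.2 CPM, next 72.4) and Hp (8.98 CPM, next 43.8).

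In GMP, HET 8 was highest for Ngp (17.5 CPM, next 4.40) and Ltf (20.46 CPM, next 2.45), from 6 and 7 reads, and lowest for Hp (32.2 CPM, next 177). In MEP, HET 1 was highest for S100a9 (11.1 CPM, next 4.63), Ngp (13.7 CPM, next 2.85) and Ltf (13.7 CPM, next 4.89), and KO 15 for Ltb4r1 (4.61 CPM, next 0.814).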

How the results depend on the processing

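Over 481 recomputed counts of members called, 437 stayed within 1.5 times the reported count and 44 did not. KO against WT in LSK gave 2 in place of 1 under upper-quartile scaling, no count filter, DESeq2, sex as a covariate and the titles' series as a block, and 3 with WT and HET together. KO against WT in CMP (3) gave 5 by DESeq2 and 6 by limma. KO against HET in CMP (2) gave 1 with no filter or with only the 2 groups, 4 by DESeq2 and 0 with the series as a block. In GMP, KO against WT and against HET (3 each) gave 0 with the series as a block, and HET against WT (0) gave 5 by limma. In MEP, KO against WT and against HET (0 each) gave 1 by DESeq2. GMP against CMP in WT (4) gave 7 by limma and with all genes of at least 1 table, GMP against MEP in KO (4) gave 2 by limma, and the KO effect against HET in GMP minus CMP (0) gave 1 by DESeq2.

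Leaving out 1 library gave 0 to 2 in LSK against WT and 1 to 3 against HET, 2 to 4 and 0 to 3 in CMP, and 0 to 3 and 0 to 4 in GMP. It gave 1 to 5 for GMP against CMP in WT, 3 to 4 for GMP against CMP and against MEP in KO, and 0 to 1 for the differences of the KO effect against HET between GMP and CMP or MEP. Leaving out every HET library numbered 8, chosen after seeing the data, left the counts at 5, 6, 3, 0 and 0.

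Whether libraries of the same title number come from the same fetus is not known, and the joint fit takes them as independent. Of 40 same-number pairs, 26 correlated over 0.1 (-0.483 to 0.691, median 0.166). Pairs of different numbers were not compared, so these values do not settle the pairing. With the replicate number as a block, GMP against CMP in KO gave 4 in place of 3, and the other counts stayed as reported.

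Of 1592 values of single members, 1453 kept direction and side of the threshold, 67 no longer passed, 63 passed newly and 9 turned direction, all 9 for Ltf. In GMP, KO against HET for Ltf was -0.15, and was 0.22 with no filter, 0.68 by limma, and 0.05, 0.39, 0.40 and 2.07 without HET 1, KO 6, KO 13 and HET 8. Without WT 5, KO against WT was 0.19, HET against WT 0.63 and GMP against CMP in WT -0.19. At the other end, leaving out 1 library gave -3.68 for KO against HET and -5.85 for KO against WT (without KO 15), -4.34 for HET against WT (without HET 8) and 5.69 for GMP against CMP in WT (without CMP WT 5). The cause was not tested. Depth limits Camp, Ngp, Ltf and Lcn2 most, at no more than 178, 106, 111 and 67 reads in any group outside LSK.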
